A study of Mus musculus with 23 samples.

Results

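The addition of norcantharidin (NCTD) to pentoxifylline (PTX) was examined in melanoma tumors that were treated by injection into the tumor. The 4 tumors of MIX_IT, which received both drugs, were compared with the 3 tumors of PTX_IT, which received PTX alone. The genes of interest were those that lie off the chromosomes X and Y, which are 52536 of the 56748 genes counted, and 12066 of them had enough counts to be tested. All tumors grew from B16-F1 cells, a melanoma line of C57BL/6 origin, placed under the skin of the flank of DBA/2J mice that were 6 to 8 weeks old. The groups compared were MIX_IT (PTX at 60 mg/kg with NCTD at 3 mg/kg) and PTX_IT (PTX at 60 mg/kg), and the other intratumoral groups were NCTD_IT (NCTD at 3 mg/kg, 4 tumors) and CONTROL_IT (the solvent DMSO, 4 tumors). All intratumoral drugs were dissolved in DMSO, so MIX_IT and PTX_IT shared the solvent, the implanted cell line and PTX, and differed by NCTD. MIX_IP and PTX_IP, with 2 tumors each, received the same doses into the peritoneum and in saline. The libraries were made from the 3′ end of polyadenylated RNA of whole tumors, so each value pools implanted melanoma cells with the cells of the host.

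PTX is a methylxanthine that inhibits phosphodiesterases, raises cyclic AMP and lowers the production of tumor necrosis factor. NCTD is a demethylated form of cantharidin and inhibits the serine and threonine phosphatases PP1 and PP2A, which remove phosphate from many kinases and transcription factors. In melanocytes and melanoma cells, cyclic AMP acts through Mitf, the transcription factor that sets the program of pigment synthesis. The comparison asks what NCTD adds to tumors that already receive PTX.

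Values are given in CPM, the counts of a gene scaled to a fixed library total, after TMM scaling of the libraries, and a fold change is the log2 difference of MIX_IT minus PTX_IT from edgeR's quasi-likelihood test with its standard error (SE). The totals were 4128535 to 6559840 counts in MIX_IT and 3132604 to 3908907 in PTX_IT, so that the 2 groups did not overlap in depth, and 3 counts, the floor of what a library can show, corresponded to 0.457 to 0.958 CPM. Pigment cell genes were abundant in all 7 tumors, with a sum over the list of 22430 to 38990 CPM. Sex-linked RNA divided the groups completely. Xist, the RNA of the inactive X chromosome, had 0 counts in the 4 tumors of MIX_IT and 1.29 to 11.4 CPM in PTX_IT, whereas the Y-linked gene Ddx3y had 6.78 to 15.6 CPM in MIX_IT and 0 to 0.278 CPM in PTX_IT. The addition of NCTD and this sex-linked difference therefore cannot be told apart in any gene below, although the study describes its groups as sex-matched. The tumor MIX_IT 23 stood apart from the rest, with a median correlation of 0.862 with the other 6 tumors, against 0.917 to 0.938 for each of the others. Of the 249 genes at an unadjusted p below 0.05 and higher in MIX_IT, 175 had their highest value of the 7 tumors in MIX_IT 23. Gene lists are described below by their members at an unadjusted p below 0.05. Of the 30 lists with such a member among the 44 reported, 11 had none without MIX_IT 23, and 0 to 7 had none when another of the 7 tumors was left out.

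No gene off X and Y passed an adjusted p of 0.05 in MIX_IT vs. PTX_IT (0 of 12066, 0%), and the smallest Benjamini-Hochberg adjusted p of edgeR's quasi-likelihood test was 0.868. An unadjusted p below 0.05 was found for 453 genes (3.75%), with 249 higher in MIX_IT (2.06%) and 204 lower (1.69%). This share is no larger than the 0.05 of genes that the threshold admits when no gene differs. All 4 tumors of MIX_IT lay above all 3 of PTX_IT for 238 genes (1.97%) and below them for 261 genes (2.16%). Groups of 4 and 3 tumors separate in some genes without any difference, so a lack of overlap does not by itself mark a change. By DESeq2, run on these 2 groups alone, 6 genes were called, namely Gm8623, Rps13-ps4, AI506816, Saa3, Mmp3 and Dynlt1a, and that tool put 346 genes below an unadjusted p of 0.05. Without MIX_IT 23, 321 genes had an unadjusted p below 0.05 in edgeR, of which 148 were higher. Without PTX_IT 16 there were 807 of 12616 (450 higher, 357 lower). Without MIX_IT 22 there were 877 of 11976 (476 higher, 401 lower). The genes below are therefore those with the smallest p, described by their values, and none of them passed the adjusted threshold of edgeR.

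**Figure D1:**
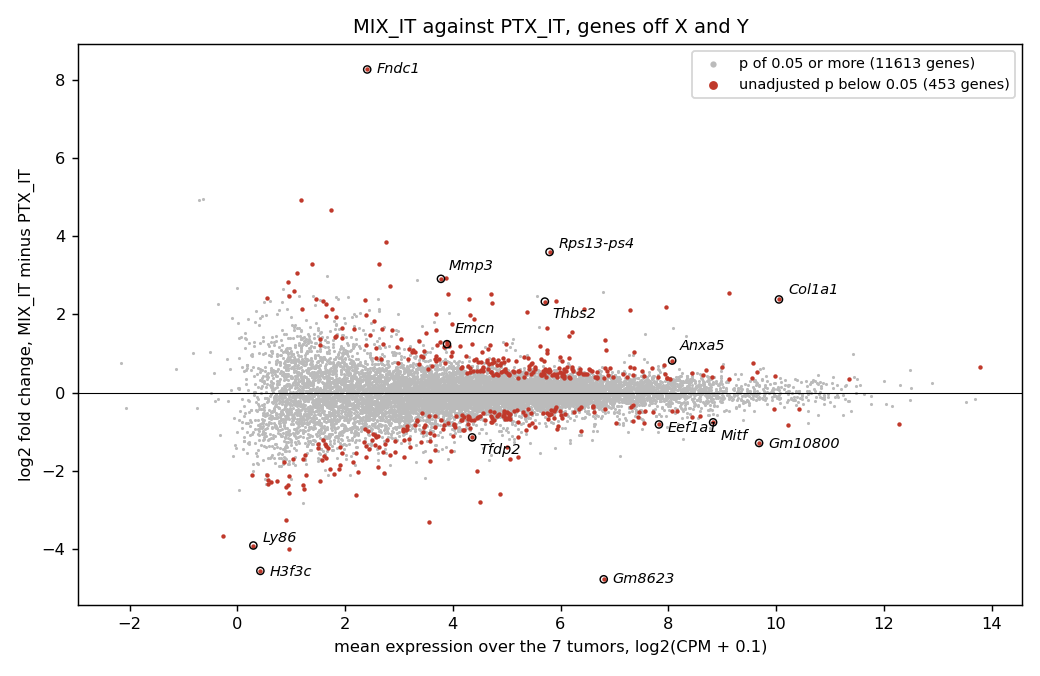
Log2 fold change of MIX_IT minus PTX_IT (vertical axis) against the mean expression over the 7 tumors on a log2 scale of CPM with 0.1 added (horizontal axis), 1 point per tested gene off X and Y. The 453 genes with an unadjusted p below 0.05 are red and 14 genes of the text are circled, and genes with few counts spread most in both directions.

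Mitf had among the smallest p of the lower genes. It lies on chromosome 6 of GRCm39 from 97784013 to 97998310. Its level was 705, 551 and 529 CPM in the tumors of PTX_IT and 329.9, 376, 340.3 and 358 CPM in those of MIX_IT. All tumors of MIX_IT lay below all of PTX_IT, and the spread within MIX_IT was narrow. The log2 fold change was -0.76 (SE 0.19, unadjusted p = 0.00118 by edgeR), which is 0.59 times the level with PTX alone. Whichever of the 7 tumors was dropped, the log2 fold change stayed within -0.84 and -0.63. CONTROL_IT had 698 to 1026 CPM of Mitf and NCTD_IT 339 to 598 CPM.

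Pigment genes, many of which Mitf is known to control, lay on both sides of 0. Of the 22 melanosome and pigment genes tested, 11 lay above and 11 below 0, their median log2 fold change was -0.0043, and the median of all tested genes was -0.0064. Tyr, the tyrosinase that begins melanin synthesis, had 946, 773 and 751 CPM in PTX_IT and 1084, 764, 688 and 677 CPM in MIX_IT, with overlapping groups and a log2 fold change of -0.04 (SE 0.19). The other member of the list at an unadjusted p below 0.05 was Cdk2, a cell cycle kinase whose gene lies next to Pmel, at 598 to 699 CPM in PTX_IT and 685 to 1243 CPM in MIX_IT (log2 fold change 0.53, SE 0.21). Dct had a log2 fold change of -0.24, Pmel of -0.18 and Mlana of -0.15, while the members of the list ran from -0.76 to 0.84. Among 20 tested genes of invasion and dedifferentiation the median was 0.11. Zeb2, a transcription factor of the neural crest, was the member lower at an unadjusted p below 0.05, at 96.3 to 146 CPM in PTX_IT and 64.7 to 105 CPM in MIX_IT. Fn1, which encodes fibronectin, was the member that was higher.

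Anxa5 had the smallest p of the higher genes. It encodes annexin A5, which binds phosphatidylserine on membranes, and lies on chromosome 3 from 36503072 to 36530043. Its level was 178, 188 and 195 CPM in PTX_IT and 355, 243, 337 and 387 CPM in MIX_IT. The groups did not overlap, and the log2 fold change was 0.82 (SE 0.19, unadjusted p = 0.000636 by edgeR). Tmem98, a membrane protein gene, had 4.44 to 6.4 CPM in PTX_IT and 12.7 to 19 CPM in MIX_IT (log2 fold change 1.54, SE 0.42), also without overlap. CONTROL_IT had 4.55 to 8.34 CPM of Tmem98 and 216 to 328 CPM of Anxa5, which for Anxa5 overlapped MIX_IT.

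Some of the other higher genes act in mitochondria or in chromatin. Acadm, the medium-chain acyl-CoA dehydrogenase of fatty acid oxidation, had 30.8 to 38.7 CPM in PTX_IT and 46.6 to 94.7 CPM in MIX_IT (log2 fold change 0.82, SE 0.24). Mmaa, which serves the vitamin B12 dependent metabolism of propionate, had 5.07 to 9.74 and 11.6 to 16.3 CPM (1.06, SE 0.32). Tstd3, a gene of the rhodanese family, had 39.8 to 43.4 and 55.2 to 70.6 CPM (0.59, SE 0.18). These 3 genes had no overlap between the groups, as was so for 1.97% of all tested genes in that direction. They were named for their small p in the same tumors, so the lack of overlap follows in part from that choice. Morf4l1, a chromatin reader of the histone acetyltransferase complex NuA4, had 109 to 133 CPM in PTX_IT and 131 to 248 CPM in MIX_IT, with a slight overlap (0.66, SE 0.19). The long noncoding RNA Gm12205 had 4.13 to 7.24 and 8.61 to 21 CPM (1.31, SE 0.37).

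Smpdl3b and Emcn were higher in both groups that received NCTD. Smpdl3b, a sphingomyelin phosphodiesterase-like protein of the cell surface, had 8.63 to 20.3 CPM in PTX_IT and 16.8 to 45.8 CPM in MIX_IT (log2 fold change 1.22, SE 0.34). The groups overlapped through MIX_IT 22, and the level was 8.22 to 12.7 CPM in CONTROL_IT and 28.1 to 37.2 CPM in NCTD_IT. Emcn encodes endomucin, a sialoglycoprotein of venous and capillary endothelium. It had 9.74, 7.29 and 7.75 CPM in PTX_IT and 20.1, 17.4, 28.7 and 12.2 CPM in MIX_IT, without overlap (1.24, SE 0.32). Of the 11 endothelial markers tested, Emcn was the only member at an unadjusted p below 0.05 (9.09%, against 2.06% of all genes). Of these markers 9 lay above 0, and the median was 0.28. Cdh5, the cadherin of endothelial junctions, had a log2 fold change of 0.93 and Pecam1 of 0.71. In RNA of whole tumors, more cells of a type and more RNA per cell cannot be told apart.

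**Figure D2:**
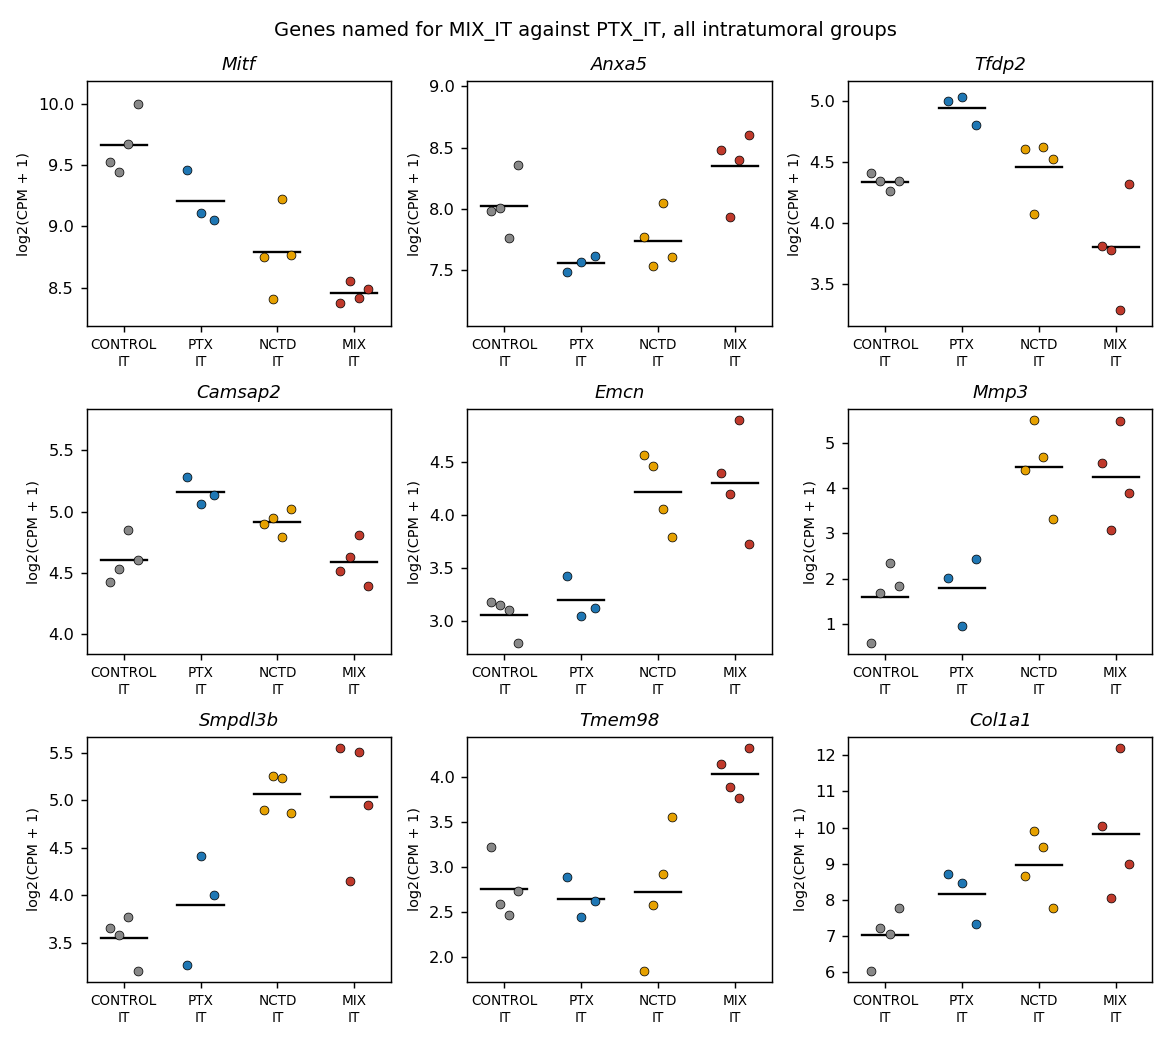
Expression of 9 genes on a log2 scale of CPM with 1 added (vertical axes) in the tumors of the 4 intratumoral groups (1 point per tumor, bar at the mean of the log2 values). Mitf was on average lowest in MIX_IT, Emcn, Mmp3 and Smpdl3b were high in both groups that received NCTD, and the highest Col1a1 of MIX_IT was that of MIX_IT 23.

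The smallest p of all tested genes off X and Y was that of Tfdp2, which encodes DP2, the partner with which E2F factors bind DNA. It lies on chromosome 9 from 96078328 to 96205699. Its level was 30.9, 31.7 and 26.9 CPM in PTX_IT and 13.1, 12.8, 8.76 and 19 CPM in MIX_IT. The groups did not overlap, and the log2 fold change was -1.15 (SE 0.24, unadjusted p = 0.000209 by edgeR). CONTROL_IT, at 18.2 to 20.2 CPM, overlapped MIX_IT and lay below PTX_IT. Camsap2, which stabilizes the minus ends of microtubules, had 37.9, 32.3 and 34.1 CPM in PTX_IT and 21.8, 23.7, 27.0 and 20 CPM in MIX_IT (-0.59, SE 0.18). CONTROL_IT, at 20.5 to 27.8 CPM, overlapped MIX_IT.

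Zswim6, a zinc finger protein gene, had 36.2 to 59.0 CPM in PTX_IT and 24.8 to 34.6 CPM in MIX_IT (log2 fold change -0.76, SE 0.20). Rfxap, a subunit of the RFX complex that binds promoters of MHC class II genes, had 22.5 to 35.9 and 12.4 to 17.4 CPM (-0.90, SE 0.27). The noncoding RNA 2700054A10Rik had 4.91 to 8.88 and 0.974 to 1.98 CPM (-1.95, SE 0.55). None of these 3 genes overlapped between the groups, as was so for 2.16% of all tested genes in that direction. They were named for their small p in the same tumors, so the lack of overlap follows in part from that choice. Antxr2, a receptor for collagen fragments and for the anthrax toxin, had 64.8 and 101 CPM in PTX_IT 13 and 15 but 16 CPM in PTX_IT 16, against 11.4 to 24 CPM in MIX_IT (-1.66, SE 0.43). PTX_IT 16 thus lay within MIX_IT, and without PTX_IT 16 the log2 fold change was -2.11 (adjusted p = 0.0360 by edgeR), the only call off X and Y in that fit. With Xist as a covariate the log2 fold changes of Antxr2 (1.3), Zswim6 (0.11) and Ly86 (3.06), a gene described next, turned positive. Xist had no count in MIX_IT and was found in all of PTX_IT, so this covariate nearly repeats the groups compared. The fit with it extrapolates and does not give effects corrected for sex.

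Some of the genes with small p rested on few counts. Fndc1, a fibronectin type III domain gene, had 0 counts in the 3 tumors of PTX_IT and 157 in MIX_IT, at 4.71, 1.23, 29.9 and 0.661 CPM. It was at least 25.9-fold higher in MIX_IT, with PTX_IT set to 3 counts over the group. Without MIX_IT 23, Fndc1 had 34 counts in MIX_IT and was at least 6.93-fold higher. Ly86, which encodes the MD-1 protein of B cells and macrophages, had 3 counts over MIX_IT and 25 over PTX_IT, a ratio of PTX_IT over MIX_IT of 16.9 (exact 95% counting interval 5.14 to 87.2). PTX_IT 16 had 0 counts of it, so the groups overlapped. Hspa1b, an inducible HSP70 chaperone, had 13.9, 12.0 and 33.3 CPM in PTX_IT and 3.42, 12.8, 1.95 and 4.96 CPM in MIX_IT (log2 fold change -1.75, SE 0.53). The other 15 genes of the heat shock and chaperone list did not pass an unadjusted p of 0.05, and the median of the 16 was 0.02. Without PTX_IT 16, 3 of the 16 were higher, against 450 of all 12616 genes in that fit. None was lower and the median was 0.31.

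Several genes of this comparison are processed pseudogenes, reverse-transcribed copies of a messenger RNA that share most of their bases with the parent gene. Rps13-ps4 on chromosome 8 (120328909 to 120329364, minus strand) copies Rps13, and Gm8623 on chromosome 8 (48085364 to 48085799, minus strand) copies Rps16, both small-subunit ribosomal proteins. Over the 453 bases of the coding sequence of Rps13, Rps13-ps4 differed at 3 bases (99.3% identity). Over 433 aligned bases of the 438 of Rps16, Gm8623 differed at 6 (98.6% identity, with 5 gap positions). The ungapped stretches of 120 bases that hold the most differences between copy and parent are printed. Reads of these libraries come from the 3′ end of the RNA and need not cover these stretches. The stretches are written 5′ to 3′ from GRCm39 with the differing bases in capitals. The first pair shows Rps13-ps4 at chr8:120329192-120329311 (minus strand) and bases 54 to 173 of the Rps13 coding sequence, and the second shows Gm8623 at chr8:48085680-48085799 (minus strand) and bases 1 to 120 of that of Rps16.
Rps13-ps4: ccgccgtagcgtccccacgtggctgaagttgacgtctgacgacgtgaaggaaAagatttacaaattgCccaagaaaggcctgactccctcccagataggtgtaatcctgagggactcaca
Rps13: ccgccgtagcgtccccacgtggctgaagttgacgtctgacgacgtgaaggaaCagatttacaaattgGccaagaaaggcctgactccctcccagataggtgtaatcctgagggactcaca
Gm8623: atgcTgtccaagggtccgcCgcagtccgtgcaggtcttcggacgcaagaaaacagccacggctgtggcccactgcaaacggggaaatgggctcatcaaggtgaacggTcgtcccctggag
Rps16: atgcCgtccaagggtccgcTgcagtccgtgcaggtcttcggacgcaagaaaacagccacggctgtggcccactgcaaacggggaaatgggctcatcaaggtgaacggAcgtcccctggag

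The level of Rps13-ps4 was 2.23, 13.3 and 7.23 CPM in PTX_IT and 92.7, 64.6, 131 and 76.7 CPM in MIX_IT. The groups lay far apart, with a log2 fold change of 3.60 (SE 0.98, unadjusted p = 0.00202 by edgeR and adjusted p = 2.10e-11 by DESeq2 on the 2 groups). CONTROL_IT and NCTD_IT each held both levels, with 7.58 CPM in CONTROL_IT 9 against 78.9 to 83.7 CPM in the other 3 tumors, and with 4.99 and 12.7 CPM against 69.6 and 130.1 CPM in NCTD_IT. The parent Rps13 had 1844, 1769 and 1120.0 CPM in PTX_IT and 926, 839, 719.6 and 1095 CPM in MIX_IT, lower without overlap (-0.82, SE 0.26). Gm8623 had 219.6, 185 and 339 CPM in PTX_IT and 8.35, 11.8, 7.79 and 7.94 CPM in MIX_IT. Its log2 fold change was -4.78 (SE 1.08, unadjusted p = 0.000407 by edgeR and adjusted p = 5.07e-48 by DESeq2 on the 2 groups).

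Gm8623 varied as widely within the groups outside this comparison, from 5.26 to 296 CPM in CONTROL_IT and from 7.36 to 135 CPM in NCTD_IT. The spread of those groups enters edgeR's model of the 4 groups, and with MIX_IT and PTX_IT alone in the model Gm8623 had an adjusted p of 0.00017 by edgeR. Its parent Rps16 had 503 to 1063 CPM in PTX_IT and 446 to 748 CPM in MIX_IT, with a log2 fold change of -0.24 (SE 0.25). Other copies were H3f3c, with 2 counts over MIX_IT and 30 over PTX_IT (ratio of PTX_IT over MIX_IT 30.3, exact 95% counting interval 7.70 to 262), and Gm32899. The fold of Gm32899 rested on PTX_IT 15, which had 67.5 CPM against 1.16 to 5.13 CPM in the other 6 tumors, and was 0.06 on the log2 scale without it. How the counting assigned reads that fit a copy and its parent alike is not given in the sources used here, so the level of each copy is uncertain.

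**Figure D3:**
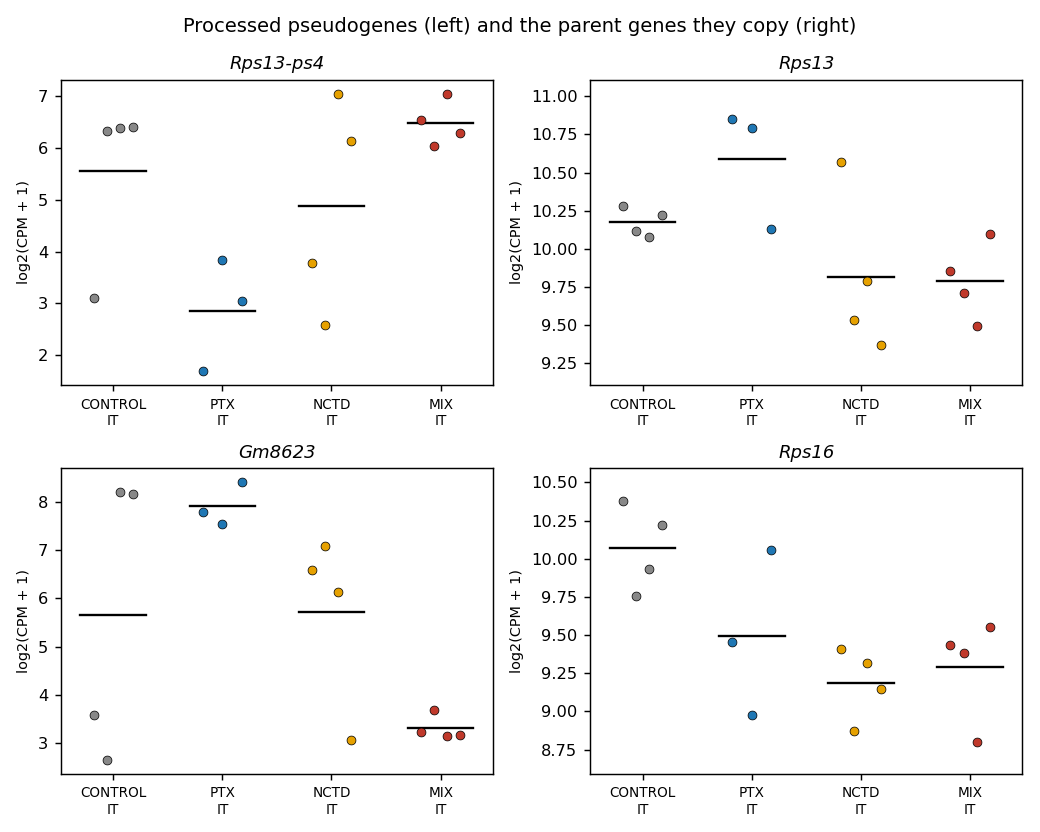
Expression of 2 processed pseudogenes (left) and of the parent genes they copy (right) on a log2 scale of CPM with 1 added (vertical axes) in the 4 intratumoral groups, with 1 point per tumor and a bar at the mean of the log2 values. The copies fell into a low and a high level, both of which occurred in CONTROL_IT and in NCTD_IT, and the parents varied far less.

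Genes of the extracellular matrix were the list with the most members at an unadjusted p below 0.05. Collagens, the fibrous and network proteins of the matrix, reached it for 9 of 17 tested genes (52.9%, all higher, against 2.06% of all genes in that direction), with a median log2 fold change of 0.91. Col1a1, the alpha 1 chain of type I collagen, had 423, 350.4 and 162 CPM in PTX_IT and 1052, 267, 4678 and 511 CPM in MIX_IT (2.38, SE 0.80). Col1a2, its partner chain, had 48.0 to 206 and 123 to 2667 CPM (2.54, SE 0.91), and Col3a1, the chain of type III collagen, 30.5 to 136 and 60.9 to 1022 CPM (2.18, SE 0.78). Their groups overlapped, and the highest level of all of these was that of MIX_IT 23. Col12a1 (2.94), Col5a1 (1.65), Col5a2 (1.45), Col6a2 (1.25), Col6a3 (2.11) and Col16a1 (0.91) were the other 6 by their log2 fold changes. The basement membrane chains Col4a1 and Col4a2 had 0.30 and 0.14.

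The collagen result depended on MIX_IT 23. The sum over the 17 genes was 1228, 986 and 578 CPM in PTX_IT and 2433, 785, 10260 and 1234 CPM in MIX_IT. Without MIX_IT 23, 0 of 17 collagens had an unadjusted p below 0.05 in edgeR and the median was 0.43, and without PTX_IT 16 the count was 2. In the same tumor 18S ribosomal RNA took 2.08% of the counts, against 0.690% to 1.79% in the other 6, and its sum of pigment genes was the lowest of the 7. The part of these differences in the collagen values was not tested.

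Of 17 matrix glycoproteins and proteoglycans, 5 were higher at an unadjusted p below 0.05 (29.4%, against 2.06% of all genes), with 1 without MIX_IT 23 and 2 without PTX_IT 16. The gene that passed without MIX_IT 23 was Vcan, the large proteoglycan versican, at 1.67, 0.634 and 2.07 CPM in PTX_IT and 5.78, 8.46, 11.9 and 4.80 CPM in MIX_IT, without overlap (log2 fold change 2.36, SE 0.83). Postn, the periostin of activated fibroblasts, had 16.2 to 21.4 and 18.4 to 241 CPM (2.34, SE 0.75), and Thbs2, thrombospondin 2, had 3.88 to 29.8 and 14.0 to 256 CPM (2.33, SE 0.91). Fn1 had 50.6 to 86.3 and 73.6 to 184 CPM (1.09, SE 0.48). Of 9 fibroblast markers only Postn passed the unadjusted threshold, with a median of 0.63 over the list. Without MIX_IT 23 that median was -0.26 and none passed in edgeR. With all 7 tumors, 7 of the 9 markers lay above 0 and 2 below it, the lowest at -0.50. Pdgfra and Pdgfrb, receptors of platelet-derived growth factor, then had log2 fold changes of 0.63 and 0.68.

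Of 12 tested matrix metalloproteinases and inhibitors, 3 were higher at an unadjusted p below 0.05 (25%, against 2.06% of all genes), and the median was -0.06. Without PTX_IT 16 the count was 1. Mmp3, stromelysin 1, lies on chromosome 9 from 7445822 to 7455975. It had 3.06, 0.951 and 4.39 CPM in PTX_IT and 22.5, 7.38, 43.3 and 13.9 CPM in MIX_IT, with no overlap and a log2 fold change of 2.91 (SE 0.72, unadjusted p = 0.000858 by edgeR and adjusted p = 0.0118 by DESeq2 on the 2 groups). It was 2.34 or more on the log2 scale whichever of the 7 tumors was left out. Mmp13, collagenase 3, had 6.72 to 20.3 and 8.76 to 174 CPM (2.06, SE 0.77), and Mmp9, gelatinase B, had 7.51, 6.02 and 0.517 CPM in PTX_IT and 12.8, 4.00, 34.6 and 24.5 CPM in MIX_IT (2.02, SE 0.79). Both overlapped. Without MIX_IT 23, Mmp3 was the member that kept an unadjusted p below 0.05. Saa3, an acute-phase protein of inflamed stroma, was called by DESeq2 and is named after its values were seen. It had 18.9, 51.0 and 18.1 CPM in PTX_IT and 208, 48.0, 134 and 128 CPM in MIX_IT (edgeR log2 fold change 2.15, SE 0.72). AI506816, a long noncoding RNA, had 32.5 to 37.3 and 63.8 to 125 CPM. Dynlt1a, a dynein light chain gene with near-identical neighbours, had 9.74, 26.0 and 131 CPM in PTX_IT and 7.28 to 11.7 CPM in MIX_IT, and its log2 fold change of -2.59 was -0.94 without PTX_IT 16. Both were also called by DESeq2 and named after their values were seen.

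The immune lists leaned lower in MIX_IT, and hardly any member passed a test. Of 19 T and NK cell markers 18 lay below 0, with a median of -1.01 and 0 at an unadjusted p below 0.05 (0%). Cd3e, a chain of the T cell receptor complex, had a log2 fold change of -1.63, Cd8b1 of -1.71 and Gzma of -1.41. The sum over the list was 347, 515 and 26.9 CPM in PTX_IT and 35.1, 394.5, 19.2 and 202 CPM in MIX_IT, so both groups held tumors with low and with high levels. Without PTX_IT 15 the median was -0.07 and without MIX_IT 22 it was -1.96. All 8 tested genes of MHC class II presentation lay below 0 (median -0.68, 0 at an unadjusted p below 0.05), and all 14 of MHC class I did too (median -0.41), with H2-Q7 at 1.55 to 6.12 CPM in PTX_IT and 0 to 2.00 CPM in MIX_IT. The median of MHC class I was 0.02 without PTX_IT 15, -0.11 without MIX_IT 23, where no member passed, and -0.88 without MIX_IT 22. That of MHC class II was -0.19 without PTX_IT 15 and -1.49 without MIX_IT 22.

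Of 17 macrophage markers 15 lay below 0 (median -0.68). Marco, a scavenger receptor, was the member at an unadjusted p below 0.05 (5.88%, against 1.69% of all genes). It had 5.84, 18.7 and 1.29 CPM in PTX_IT and 0.214, 0.769, 3.90 and 0.827 CPM in MIX_IT. Its log2 fold change of -2.61 was 3.32 with Xist as a covariate. Without PTX_IT 16, 9 of the 17 were lower at an unadjusted p below 0.05 in edgeR, against 357 of all 12616 genes. The median was then -1.17. PTX_IT 16 had the lowest macrophage sum of the 7, at 1257 CPM. Of 33 interferon response genes 30 lay below 0 (median -0.47). Irgm1, an interferon-inducible GTPase, was the member that passed, at 15.6, 14.3 and 17.6 CPM in PTX_IT and 7.06, 8.92, 4.38 and 5.95 CPM in MIX_IT, without overlap (log2 fold change -1.25, SE 0.51). Without MIX_IT 23 no interferon response gene passed and the median was -0.18, and without PTX_IT 15 it was -0.08. Tnf, whose production PTX lowers, had 10.6, 10.1 and 0.775 CPM in PTX_IT and 2.35, 7.84, 0.974 and 6.28 CPM in MIX_IT (-0.67, SE 0.87), and the sign turned with Xist as a covariate (3.58). None of the 24 genes of the TNF and NF-kappa B list and none of the 22 chemokines and receptors passed an unadjusted p of 0.05.

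The neutrophil list had a median of 1.37 over 7 tested genes, 4 above 0 and 3 below it, and Mmp9 passed, though not without MIX_IT 23 or PTX_IT 16. The granule genes S100a8 and S100a9 had log2 fold changes of 1.51 and 1.78. Below 0 were Csf3r, the receptor of G-CSF (-1.28), the granule collagenase Mmp8 (-1.02) and Il1r2, a decoy receptor of interleukin 1 (-0.65). Ly6g, which defines neutrophils, had 0 counts in all 7 tumors. The sum over the list was 30.9 to 57.4 CPM in PTX_IT and 59.0 to 134 CPM in MIX_IT, and these ranges did not overlap. For B cells, Cd79a and Ms4a1 had 0 counts in all 7 tumors, and the 3 genes tested had a median of -0.71. The 6 dendritic cell markers had a median of -0.21. For tissues next to the tumor, 0 of 2 keratinocyte, 0 of 3 skeletal muscle and 0 of 2 adipocyte markers passed, and the 4 globin genes tested of the erythroid list had a median of 1.21 with 0 passing. Without PTX_IT 16 all 4 were higher at an unadjusted p below 0.05 in edgeR, against 450 of all 12616 genes. Their median was then 2.60, and without MIX_IT 22 it was 0.06.

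Genes that cells switch on at low oxygen leaned lower in MIX_IT. Of 22 hypoxia and HIF-1 target genes, 3 were lower at an unadjusted p below 0.05 (13.6%, against 1.69% of all genes), 20 lay below 0, and the median was -0.46. P4ha1, a prolyl hydroxylase that modifies collagen, had 81.3, 69.8 and 70.5 CPM in PTX_IT and 46.4, 67.8, 31.2 and 44.0 CPM in MIX_IT, without overlap (log2 fold change -0.64, SE 0.21). Bnip3l, which marks mitochondria for removal, had 382, 382 and 677 CPM in PTX_IT and 356, 376, 232 and 294 CPM in MIX_IT, also without overlap (-0.61, SE 0.23). Egln1, the oxygen sensor PHD2, had 130.3 to 415 and 89.1 to 198 CPM and overlapped (-0.77, SE 0.32). PTX_IT 16 had the highest level of Bnip3l and Egln1. Without it the median of the list was -0.10, with 1 gene lower and 1 higher. Without MIX_IT 22, 6 genes were lower, against 401 of all 11976 genes in that fit. Of 20 glycolysis genes 1 was lower, the lactate exporter Slc16a3, at 20.6 to 31 CPM in PTX_IT and 6.33 to 20.4 CPM in MIX_IT, without overlap (-0.95, SE 0.45). It passed without MIX_IT 22 or 24 and missed the threshold without each of the other 5 tumors.

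Genes of mitochondrial respiration differed little. Of 72 nuclear-encoded genes of oxidative phosphorylation 2 were higher (2.78%, against 2.06% of all genes), with a median of 0.10. These were the complex I subunit Ndufs1 (log2 fold change 0.63) and the ATP synthase subunit Atp5g1 (0.56). Without PTX_IT 16, 6 of the 72 were higher, against 450 of all 12616 genes. Without MIX_IT 23, 5 were higher, against 148 of all 11905 genes, and 1 was lower. None passed in edgeR without MIX_IT 21. Of the 13 genes of the mitochondrial genome 1 was higher, mt-Cytb, at 9043 to 11520.5 CPM in PTX_IT and 11833 to 21254 CPM in MIX_IT (0.66, SE 0.28), and the median was 0.27. None passed without MIX_IT 21, MIX_IT 23, PTX_IT 15 or PTX_IT 16. Among 77 cytosolic ribosomal protein genes Rps13, Rps28 and Rps3 were lower (3.90%, against 1.69% of all genes), and the median was -0.11. Without MIX_IT 23, 1 was lower, and without PTX_IT 16, 2 were higher and 1 was lower, with a median of 0.11. Of 56 translation factors 4 were lower and 2 were higher (10.7%, against 3.75% of all genes), with a median of -0.04. This became 3 lower and 1 higher without MIX_IT 23, and 1 lower and 4 higher without PTX_IT 16. Eef1a1, the elongation factor that brings aminoacyl-tRNA to the ribosome, had 360.1, 188 and 355 CPM in PTX_IT and 219.5, 232, 119 and 114 CPM in MIX_IT (-0.82, SE 0.28). Eif3f, a subunit of initiation factor eIF3, was lower without overlap, at 321 to 368 and 194 to 297 CPM, and Eif2ak4, the amino acid sensor GCN2, was higher without overlap, at 22.5 to 24 and 29.8 to 34.4 CPM.

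Lists of growth control depended on single tumors. Of 39 cell cycle genes 31 lay above 0, with a median of 0.25. The mitotic kinase Plk1 was the member that passed (2.56%, against 2.06% of all genes). It had 53.9 to 90.7 CPM in PTX_IT and 73.2 to 142 CPM in MIX_IT. Without PTX_IT 16, 10 of the 39 were higher, against 450 of all 12616 genes in that fit, and the median was 0.63. No member was higher at an unadjusted p below 0.05 in edgeR without PTX_IT 13 or 15 or without MIX_IT 21, 23 or 24. Without PTX_IT 15 and without MIX_IT 21, 1 was lower. The median was 0.09 without MIX_IT 23. Of 18 p53 target genes 2 were higher (11.1%, against 2.06% of all genes). Both were without overlap, as were 1.97% of all tested genes in that direction. Ccng1 had 60.2 to 80.8 and 81.3 to 125 CPM. The death receptor gene Tnfrsf10b had 7.93 to 10.3 and 11.1 to 25.6 CPM. None of the 18 was higher at an unadjusted p below 0.05 in edgeR without MIX_IT 23, where the median was 0.09, without PTX_IT 13 or without PTX_IT 15. None of 24 genes of the BCL2 family and caspases passed. Of 14 thioredoxin system genes Prdx1, a peroxiredoxin, had 2178 to 2365 CPM in PTX_IT and 2521 to 3211 CPM in MIX_IT, without overlap (log2 fold change 0.35, SE 0.15). Txn2 was also higher. None of the 14 passed without PTX_IT 15 or MIX_IT 24. Txnip, the inhibitor of thioredoxin, had 753, 1241 and 171 CPM in PTX_IT and 588 to 811 CPM in MIX_IT (-0.06, SE 0.44). Of 15 clock genes Rora was lower, at 47.6 to 63.7 and 17.5 to 50.1 CPM. Cry1 was higher without overlap, at 5.01 to 6.72 and 8.10 to 12.2 CPM. No clock gene was higher at an unadjusted p below 0.05 in edgeR without PTX_IT 13, PTX_IT 15 or MIX_IT 21. The signs of Plk1, Txnip, Txn2, Ndufs1 and Zeb2 turned with Xist as a covariate.

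The genes of the drugs' own targets were also examined. Of 24 tested genes of the phosphatases PP1 and PP2A, the targets of NCTD, 1 passed an unadjusted p of 0.05 (4.17%, against 3.75% of all genes), and the median was 0.04. This was Ppp2r3a, a regulatory subunit of PP2A, at 15.3, 6.02 and 8.27 CPM in PTX_IT and 26.5, 12.8, 19.5 and 22.5 CPM in MIX_IT, with a slight overlap (log2 fold change 1.03, SE 0.33). Of 19 tested genes of phosphodiesterases, adenosine receptors and cyclic AMP signaling 1 passed (5.26%, against 3.75% of all genes). This was Nt5e, which encodes CD73 and makes adenosine outside the cell, at 2.78, 2.85 and 1.29 CPM in PTX_IT and 6.85, 3.69, 14.8 and 7.61 CPM in MIX_IT, without overlap (1.82, SE 0.66). It did not pass without MIX_IT 23 or PTX_IT 16.

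The kinase genes fixed by name overlapped between the groups. Erbb2, a receptor tyrosine kinase, had 3.06, 0.317 and 6.97 CPM in PTX_IT and 3.54 to 8.52 CPM in MIX_IT (log2 fold change 0.56, SE 0.68). Braf had 15.6 to 19.3 and 11.6 to 24.4 CPM (-0.03, SE 0.26), and Pik3ca, the catalytic subunit of PI3K, 74.9 to 95.8 and 65.5 to 102 CPM (0.05, SE 0.19). Akt1 had 624 to 1103 and 477 to 1134 CPM (-0.08, SE 0.36), and Mtor 29.5 to 34.6 and 21.2 to 35.7 CPM (-0.12, SE 0.23). Of 28 PI3K, AKT and mTOR genes 1 was higher (3.57%, against 2.06% of all genes). This was Rps6kb2, an S6 kinase, at 7.61 to 9.82 and 11.4 to 15 CPM, without overlap (0.60, SE 0.26). No gene of that list passed without PTX_IT 13, PTX_IT 15 or MIX_IT 24. Mif, a cytokine abundant in melanoma, had 1226, 1623 and 2486 CPM in PTX_IT and 5439, 1425, 3395 and 3771 CPM in MIX_IT (0.98, SE 0.53, unadjusted p = 0.0804 by edgeR). With Xist as a covariate the signs of Erbb2, Braf, Mtor and Mif turned.

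The remaining lists held few members that passed an unadjusted p of 0.05. These were Mrps11 and Mrpl47 (higher) and Mrpl9 (lower) of 74 mitochondrial ribosomal protein genes, Psmd2 and Psmd3 (higher) of 32 proteasome subunits, Fnip2 (higher), a folliculin partner, of 25 lysosome and autophagy genes, and Gpx3 (higher) of 27 NRF2 target and glutathione genes. Gpx3 had a log2 fold change of 2.39, which was 0.65 without MIX_IT 23. Without PTX_IT 16, 7 of 75 mitochondrial ribosomal protein genes were higher, against 450 of all 12616 genes, and none was lower. Among 27 nuclear RNAs and splicing factors Meg3 and Srsf6 were higher and Snhg12 was lower, but none of the 27 passed in edgeR without MIX_IT 23. The log2 fold change of Meg3 was 2.30, and 0.08 without that tumor. The nuclear RNA Malat1 had 74.7 to 418 CPM in PTX_IT and 156 to 499 CPM in MIX_IT (log2 fold change 0.29, SE 0.46). None of 26 ER stress, 20 immediate early and 18 cholesterol synthesis genes passed.

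The effect of NCTD was then set beside the effect that NCTD had without PTX, NCTD_IT minus CONTROL_IT, which uses none of the same tumors. Of the 453 genes at an unadjusted p below 0.05 in MIX_IT vs. PTX_IT, 134 also had it in NCTD_IT vs. CONTROL_IT. This is 29.6% of the 453, against 21.7% of all tested genes, and 5.12% of the 2615 genes of the second comparison. Of the 134, 69 were higher in both, 29 lower in both and 36 went opposite ways. Across all tested genes, which are not independent replicates, the rank correlation of the log2 fold changes was 0.04. The sex-linked RNA ran the other way in the second comparison, since all 4 tumors of NCTD_IT had Xist (5.2 to 13.4 CPM) and those of CONTROL_IT had Ddx3y (1.01 to 8.99 CPM).

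Mitf, Emcn, Smpdl3b and Mmp3 were picked from the genes that passed an unadjusted p of 0.05 with the same direction in both. Small differences between their NCTD effects are in part a result of that choice. For Mitf the log2 fold change of NCTD without PTX was -0.86 (SE 0.18), and the difference between both effects was 0.10 (SE 0.27). For Emcn it was 1.29 (SE 0.29), with a difference of -0.05 (SE 0.42), and for Smpdl3b 1.58 (SE 0.31), with a difference of -0.36 (SE 0.45). For Mmp3 it was 3.38 (SE 0.65), with a difference of -0.47 (SE 0.93). Tfdp2 and Anxa5, which had the smallest p in each direction with PTX, had the opposite sign without it. Tfdp2 had 0.14 without PTX (difference -1.29, SE 0.33), and Anxa5 had -0.29 (difference 1.11, SE 0.26). Neither difference passed the adjusted threshold. Collagens had a median of 1.25 without PTX and 0.91 with PTX, and matrix glycoproteins and proteoglycans 1.25 and 0.58. Several immune lists had medians of opposite sign, with T and NK cell markers at 1.71 without PTX and -1.01 with it, macrophage markers at 0.86 and -0.68, and MHC class II presentation at 1.11 and -0.68. Without PTX, 2 of 19, 5 of 17 and 0 of 8 of their members passed an unadjusted p of 0.05, against 21.7% of all genes. The sum of T and NK cell markers was 11.1 to 427 CPM in CONTROL_IT and 98.9 to 895 CPM in NCTD_IT, with overlap. Neutrophil markers had the same sign, at 4.86 and 1.37. Their sum was 15.3 to 30 CPM in CONTROL_IT and 85.3, 2448, 153 and 65.7 CPM in NCTD_IT. NCTD_IT 18 thus stood far above the rest, and its part in the median was not tested.

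**Figure D4:**
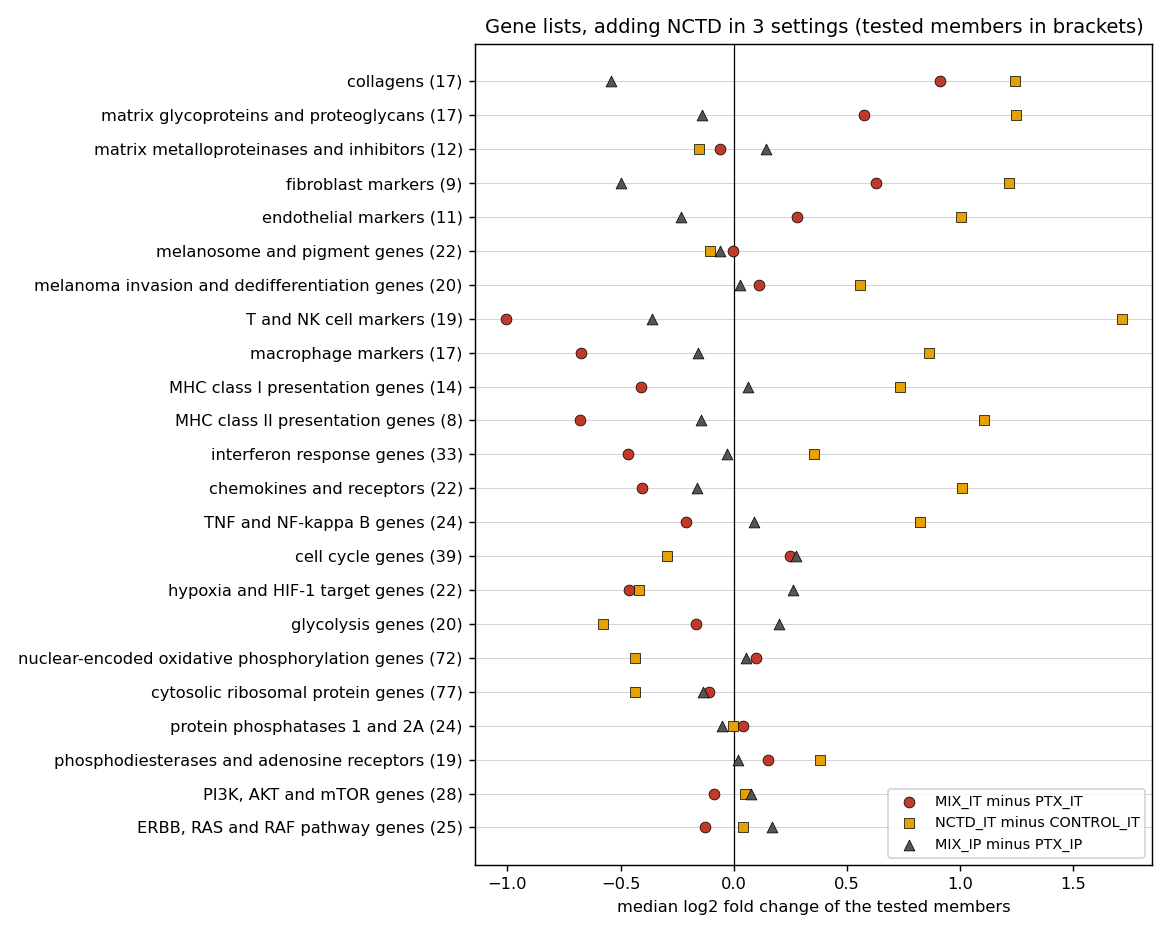
Median log2 fold change of the tested members (horizontal axis) of 23 gene lists (vertical axis, number of tested members in brackets) on adding NCTD to PTX in the tumor, NCTD to DMSO in the tumor, and NCTD to PTX by the peritoneum. Collagens lay above 0 in both intratumoral comparisons. The T and NK cell markers were at -1.01 with PTX and 1.71 without it, with list sums that overlapped between the groups in each comparison.

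The difference between both NCTD effects was tested gene by gene in the 15 intratumoral tumors. It passed an adjusted p of 0.05 for 2 genes off X and Y (0.0166% of 12066), Gm10800 and Gm10722, and for 3 on X or Y, while 1356 genes had an unadjusted p below 0.05 (11.2%). Because the sex-linked RNA changes sides between the 2 effects, it cannot be told apart from this difference either. Gm10800 on chromosome 2 (98496892 to 98497646, minus strand) and Gm10722 on chromosome 9 (3000922 to 3002330) are predicted gene models whose sequence resembles major satellite, the repeat of mouse pericentromeric chromatin. Gm10801 on chromosome 2 and Gm11168 on chromosome 9 are models of the same kind. The longest run of bases that Gm10800 shares with Gm10722 is 99 bases long, on chr2:98497251-98497349 (minus strand) of GRCm39. It is printed because a read that lay wholly within it would fit both models. By the study's methods, untrimmed reads were longer than this run. The 4 models share between 7.6% and 64.9% of their stretches of 31 bases pair by pair.
Gm10800: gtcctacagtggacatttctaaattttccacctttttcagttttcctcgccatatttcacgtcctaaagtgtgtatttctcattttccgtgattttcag

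The level of Gm10800 was 1211, 1819.9 and 699 CPM in PTX_IT and 339.8, 485, 997 and 214 CPM in MIX_IT. The groups overlapped through MIX_IT 23 and PTX_IT 16, and the log2 fold change was -1.29 (SE 0.44, unadjusted p = 0.0101 by edgeR). CONTROL_IT had 205 to 379 CPM and NCTD_IT 1096 to 2811 CPM, a log2 fold change of 2.82 (SE 0.44) for NCTD without PTX. The 2 NCTD effects thus differed by -4.11 on the log2 scale (SE 0.62, adjusted p = 0.0216 by edgeR). The levels in MIX_IT overlapped those of CONTROL_IT and lay below all of NCTD_IT. Gm10722 had 45.6, 76.4 and 26.6 CPM in PTX_IT and 11.8, 18.9, 38.0 and 6.62 CPM in MIX_IT, against 4.25 to 13.4 CPM in CONTROL_IT and 43.9 to 104 CPM in NCTD_IT. Its 2 effects differed by -4.47 (SE 0.71, adjusted p = 0.0289 by edgeR). Gm10801 (-3.77, SE 0.72) and Gm11168 (-3.74, SE 0.70) had the same direction at adjusted p of 0.135 and 0.119. With genes on X and Y removed before the fit, or with all 23 tumors in the model, neither gene was called, and the smallest adjusted p by edgeR was 0.0598 and 0.156. With Xist as a covariate it was 0.738. No gene was called when CONTROL_IT 9, 10 or 12, PTX_IT 13 or 15, NCTD_IT 18, or MIX_IT 21 or 22 was left out, with smallest adjusted p of 0.0502 to 0.103 by edgeR.

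**Figure D5:**
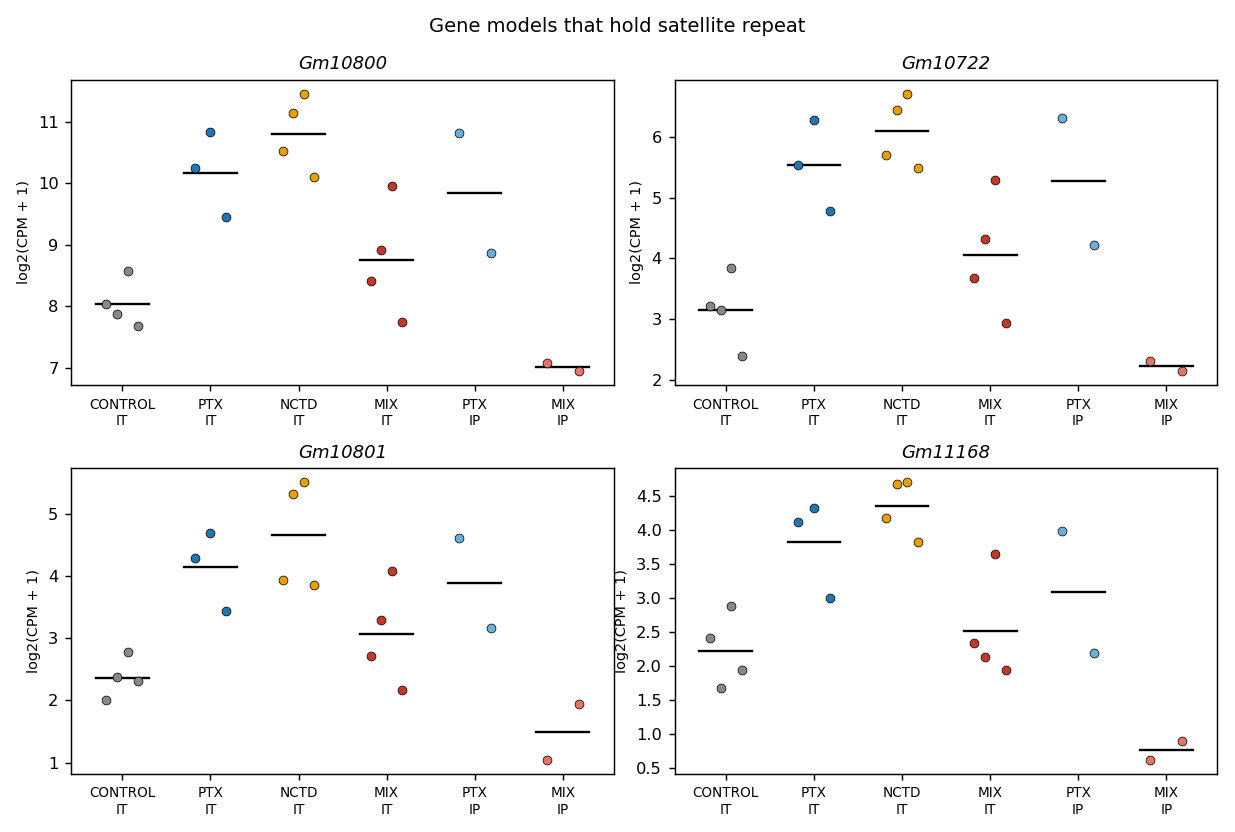
Expression of 4 satellite-holding gene models on a log2 scale of CPM with 1 added (vertical axes) in the 4 intratumoral groups and in PTX_IP and MIX_IP, with 1 point per tumor and a bar at the mean of the log2 values. The models were high in the groups with 1 drug and lower in CONTROL_IT and MIX_IT, and both tumors of MIX_IP lay below both of PTX_IP.

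Genes with a larger NCTD effect with PTX than without it did not pass the adjusted threshold. By p the first were Rnd2, a small GTPase (1.69, SE 0.34), Mrps22, a mitochondrial ribosomal protein (1.76, SE 0.39), Atp5g1 (1.38, SE 0.32) and Etfrf1, a regulator of the electron transfer flavoprotein (1.31, SE 0.30). Their adjusted p by edgeR were 0.203 for Rnd2 and 0.308 for the other 3. All 4 had lower levels in NCTD_IT than in CONTROL_IT. Rnd2 had 12.5, 15.9 and 18.3 CPM in PTX_IT and 27.4, 22.1, 35.1 and 23.2 CPM in MIX_IT, without overlap.

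By the peritoneal route the same addition of NCTD was measured in 2 tumors of MIX_IP and 2 of PTX_IP, all of which had Ddx3y and no count of Xist. Of 12019 genes tested off X and Y, 0 passed an adjusted p of 0.05 (0%), with a smallest adjusted p of 0.803 by edgeR, and 595 had an unadjusted p below 0.05 (4.95%). With DESeq2 6 genes were called. Among the 11662 genes tested in both routes 29 had an unadjusted p below 0.05 in both, which is 6.67% of the intratumoral genes and 5.10% of the peritoneal ones, against 4.88% of all these genes in the peritoneal comparison. Of the 29, 15 had the same direction, and the rank correlation across all genes was 0.01. A difference of route and a difference of batch cannot be told apart from the labels.

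Gm10800 was lower in MIX_IP as well, at 1804 and 467 CPM in PTX_IP and 134 and 123 CPM in MIX_IP (log2 fold change -3.15, SE 1.28), and Gm10722 and Gm11168 followed it. Mmp13 had 9.89 and 1.55 CPM in PTX_IP and 37.1 and 23.0 CPM in MIX_IP (2.33, SE 0.59). Eef1a1, at 469 and 390.4 CPM in PTX_IP and 287 and 263 CPM in MIX_IP (-0.64, SE 0.19), mt-Cytb (0.46, SE 0.18) and Ccng1 (0.65, SE 0.18) also had the direction of the intratumoral tumors. Col3a1 went the opposite way, at 254 and 163 CPM in PTX_IP and 65.8 and 60.3 CPM in MIX_IP, and so did Fndc1, at 5.25 and 2.88 CPM in PTX_IP and 0 counts in both tumors of MIX_IP. Mitf had 465 and 586 CPM in PTX_IP and 687 and 872 CPM in MIX_IP (0.57, SE 0.25, unadjusted p = 0.0514 by edgeR), the reverse of its intratumoral order. Collagens had a median of -0.54 and T and NK cell markers of -0.36 by this route.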

How the data were processed

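RNA of 23 tumors was sequenced from the 3′ end (8 groups, 15 intratumoral and 8 peritoneal tumors), and 7 of them form the comparison. The authors trimmed reads with Trimmomatic, aligned them to GRCm39 with STAR 2.7.11b and deposited unnormalized gene counts, per the labels and the study's methods. The strand setting and the use of molecular identifiers are not given in the sources used here, so antisense and overlapping genes can share reads. Groups were taken from the labels.

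The gene counts entered edgeR 4.0.16 under R 4.3.3 (filterByExpr at min.count 10 and min.total.count 15, TMM scaling, two-sided quasi-likelihood test) over the 4 intratumoral groups, with Benjamini-Hochberg adjustment over all tested genes, X and Y included. The 414 tested genes on X and Y are not reported. DESeq2 1.42.0 and limma 3.58.1 were used for alternatives. The steps were tested on simulated data. The sequences are those of the GRCm39 reference at the coordinates listed with the counts, and the coding sequences are from GENCODE.

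The comparison, the gene lists and the tests were chosen with earlier results of these data known. Genes were named by a rule: the 12 smallest p in each direction, up to 4 members of a list with an unadjusted p below 0.05, the genes Mitf, Tyr, Erbb2, Braf, Pik3ca, Akt1, Mtor, Mif, Tnf, Mmp9, Txnip, Malat1 and Gm10800, and the 4 smallest p in each direction for the difference of the NCTD effects. Other members named with a log2 fold change alone, and Rps16, were named after their values were seen. Tumors of a group differed by more than sampling noise (chi-square per degree of freedom 11.9 to 71.8 in the 2 groups). Whether each label stands for a separate animal is taken from the labels, and p-values measure the spread between these samples. Floors and counting intervals cover counting error only. The result of the ERBB, RAS and RAF pathway list is not reported here.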

Additional observations from a re-analysis of the deposited data

Results flagged for a closer look

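In groups of 4 tumors, 119 sets of values were examined for a tumor far from the other 3, and 11 had one. Of these, 8 concerned MIX_IT 23. A chance rate of about 1 in 20 holds for independent, normally distributed values, which these CPM are not. MIX_IT was examined for every named gene, most of them named for a small p in this comparison, and CONTROL_IT and NCTD_IT for few. The counts follow in part from that choice. Its Fndc1 was 29.9 CPM (0.661 to 4.71 in the other 3), its Col1a2 2667 CPM (123 to 464), its Thbs2 256 CPM (14.0 to 29.1), its Gpx3 92.8 CPM (5.07 to 14.1), its Meg3 134 CPM (1.08 to 15), its Marco 3.90 CPM (0.214 to 0.827) and its Gm11168 11.4 CPM (2.81 to 4.07). Its median correlation with the other 6 tumors was 0.862 (0.929 to 0.938). In MIX_IT 22 Gm8623 was 11.8 CPM (7.79 to 8.35), and in MIX_IT 21 Gm32899 was 5.13 CPM (1.16 to 1.70). In CONTROL_IT 9 Rps13-ps4 was 7.58 CPM (78.9 to 83.7).

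By a test of the difference between both NCTD effects, Gm10800 (-4.11 on the log2 scale) and Gm10722 (-4.47) passed, at adjusted p of 0.0216 and 0.0289 by edgeR. Neither was called with all 23 tumors, with X and Y removed, with Xist as a covariate or when any of several single tumors was left out. The sex-linked RNA changes sides between both effects and cannot be told apart from this difference.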

How the results depend on the processing

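No paired analysis was possible because the groups compared share no replicate numbers. For MIX_IT vs. PTX_IT, where edgeR called 0 genes, every gene with any count in the fit gave 103 calls, the 2 groups alone 1 and DESeq2 6, and leaving out 1 tumor gave 0 to 1. The 453 genes at an unadjusted p below 0.05 became 1216 with every gene with any count (40.7% of them higher, against 55.0%), 229 with the 2 groups alone, 682 with all 23 tumors, 1169 with Xist as a covariate, 1300 with voom quality weights (chosen after the data were seen) and 321 to 877 without 1 tumor. They numbered 807 without PTX_IT 16 and 877 without MIX_IT 22. The difference of the NCTD effects, with 2 calls, gave 430 with every gene with any count, 16 by DESeq2, 3 with thinned counts, 0 with all 23 tumors, with X and Y removed and with Xist as a covariate, and 0 to 13 without 1 tumor (13 without PTX_IT 16, 5 without MIX_IT 23). For MIX_IP vs. PTX_IP the 0 calls became 105 with every gene with any count, 6 by DESeq2 and 0 to 2 without 1 tumor. Where a group was left with 1 tumor, that tumor was assumed to vary like the other groups.

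With Xist as a covariate the log2 fold change changed sign for Tyr (0.23), Antxr2 (1.3), Zswim6 (0.11), Ly86 (3.06), Gm32899 (1.79), Marco (3.32), Tnf (3.58), Mif (-0.65), Erbb2 (-1.04), Braf (0.037), Mtor (0.10), Txnip (3.00), Mrps22 (-0.42), Zeb2 (0.22), Plk1 (-0.24), Ndufs1 (-0.39), Mrpl47 (-0.35) and Txn2 (-0.0074). With voom quality weights it did so for Braf (0.048), Akt1 (0.10) and Mtor (0.040). Leaving out 1 tumor gave both signs for Tyr (-0.21 to 0.068), Gm32899 (-3.97 to 0.057), Rps16 (-0.46 to 0.085), Braf (-0.27 to 0.12), Pik3ca (-0.043 to 0.18), Akt1 (-0.32 to 0.19), Mtor (-0.22 to 0.0033), Txnip (-0.52 to 0.59) and Malat1 (-0.15 to 1.07). The cause was not tested in any of these. Because Xist nearly repeats the groups MIX_IT and PTX_IT, the values with Xist as a covariate are not effects corrected for sex. Genes near the floor of 3 counts, such as Fndc1, Ly86 and H3f3c, are limited by depth.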
